A study of Drosophila melanogaster with 3 samples.

Results

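In Drosophila melanogaster, 54 genes gave a lower signal in ovaries with an sva53 mutant germ line than in control ovaries on each of 3 arrays. Their symbol is a CG number, the provisional symbol that the genome project gave to predicted genes, though some have other names as aliases. They were taken from 4635 measured genes with such a symbol, out of 10805 genes measured in all. The rule asked for a mean log2 ratio of mutant over control at or below -0.8, which is 1.74-fold lower, and for less than 0.8 log2 between the highest and the lowest array. It also set aside 7 genes by name. The genes were thus chosen by the measured ratios on all 3 arrays, which are given below as a description and are not tested.

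The arrays compared RNA of whole ovaries from flies about 7 days old. The mutant channel held ovaries whose germ line grew from pole cells, the precursors of germ cells, taken from embryos of germline clones homozygous for sva53[M1], made with FLP/FRT and a dominant female-sterile marker. The control channel held ovaries whose germ line grew from sva53/+ pole cells. The mothers of the mutant pole cells had a homozygous germ line, which held no normal allele to give maternal product either. An effect of the mother and one of the germ line's own genotype therefore cannot be told apart. Both kinds of pole cell were placed in hosts laid by females homozygous for osk, so the somatic cells of the ovary were host cells in both channels. Each mutant pool held 2 pairs of ovaries (n = 3), and 1 control RNA from 3 pairs was used on all 3 arrays.

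The deposited log ratio was read as control over mutant, the order in which Agilent software writes the dyes, and its sign was turned. That direction is likely and is not stated in the labels; with the other order every value here would be higher in the mutant. The mutant was in the same dye on every array, so a dye bias of a feature would not cancel. In whole ovaries, fewer cells of a type and less RNA per cell cannot be told apart. Only ratios were used here, so the level of a gene, and the tissue label against ovary markers, were not checked.

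Pole cells form at the posterior of the embryo, move into the gonad and give rise to germline stem cells. In the female, these divide into cysts of nurse cells and 1 oocyte, which follicle cells then wrap. The oskar gene is needed to make pole cells, so embryos of osk mutant mothers have room for a donor germ line. Some genes of the male germ line are nearly silent in a normal ovary, where the female germ cell program is kept.

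**Figure D1:**
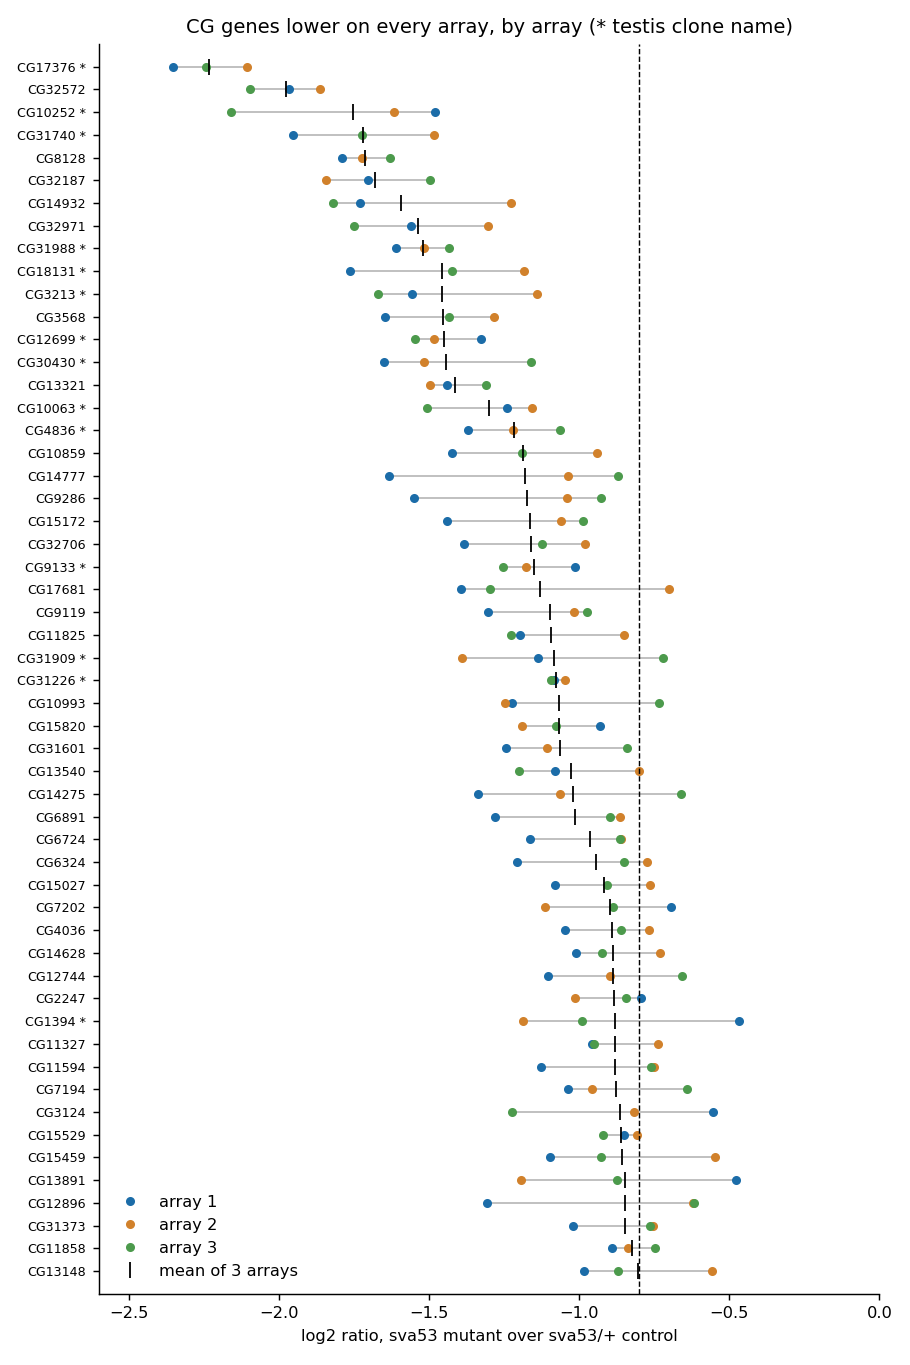
Log2 ratio of mutant over control (x axis) on each of the 3 arrays for the 54 genes, in order of their mean (vertical tick); the dashed line is the limit of -0.8, and an asterisk marks a gene with a testis clone name among its aliases. Means run from -2.23 for CG17376 to -0.80 for CG13148.

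Over the 54 genes the mean ratio ran from -2.23 to -0.80, with a median of -1.08, against a median of -0.02 over all measured CG genes. Array by array, the median over the 54 was -1.24, -1.05 and -0.99. Array 1 gave the lowest value for 32 of them, array 3 for 13 and array 2 for 9. Among all 4635 CG genes array 1 was lowest for 1560, or 33.7%. Array 1 also had the widest spread over all features, with an SD of 0.488 log2 against 0.347 for array 2 and 0.339 for array 3. The part of that spread in the order was not tested.

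In 34 of the 54 the mean was at or below -1, which is a 2-fold difference, and in 19 every single array was at or below -1. With limma over 15415 tested rows, which are the gene averages and the single features without 1 gene, 53 of the 54 passed an adjusted p under 0.05 as lower, while 7.06% of all CG genes and 7.23% of all tested rows did. With any 1 array left out limma called 0 of the 54 and 0 of all rows at that threshold. The rule used the same ratios, so nothing is read from that count. Both limits together took 1.17% of the CG genes and 1.09% of all genes, which adds 64 genes with proper names. Those 64 had a median mean ratio of -1.03.

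CG17376 had the lowest mean of the group. It read -2.35, -2.10 and -2.24 on arrays 1, 2 and 3, a mean of -2.23 ± 0.12 (SD, n = 3), or 4.70-fold lower. All 3 values were close together, and no array came near the limit.

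CG32572, next in order, read -1.97, -1.86 and -2.10, for a mean of -1.98 ± 0.12 (SD, n = 3). It was measured by 2 features, which gave -2.15 and -1.80, so both reported a large difference. CG10252 read -1.48, -1.62 and -2.16, and array 3 stood below the others.

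The next genes in order lay between -1.72 and -1.45. CG31740 read -1.95, -1.49 and -1.72. CG8128 read -1.79, -1.72 and -1.63, and its 2 features gave -1.84 and -1.59. These arrays hardly differed for CG8128, with 0.159 log2 between the highest and the lowest.

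CG32187, which carries the alias DPLG2, read -1.70, -1.84 and -1.50. CG14932 read -1.73, -1.23 and -1.82, and CG32971 read -1.56, -1.30 and -1.75. For both of these array 2 was the highest. CG31988 read -1.61, -1.52 and -1.43, with its 2 features at -1.61 and -1.43.

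CG18131 read -1.76, -1.19 and -1.42. CG3213 read -1.56, -1.14 and -1.67, and CG3568 read -1.65, -1.28 and -1.43. In all 3 of these genes array 2 again gave the smallest difference. Over the whole group array 2 was the highest for 27 of 54, array 3 for 18 and array 1 for 9.

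The steadiest gene was CG31226, at -1.08, -1.05 and -1.09, only 0.0460 log2 from end to end. CG15529 followed at -0.85, -0.81 and -0.92, though its 2 features gave -1.23 and -0.48, the latter above the limit of -0.8. CG11858 read -0.89, -0.84 and -0.75; its protein is a peptidyl-prolyl isomerase of the parvulin type, an enzyme that turns the bond before proline residues. These 3, with CG8128 and CG31988, had the smallest ranges of the 54. The range was taken after features of a gene were averaged, so single features can vary more. For CG31988 the features read -1.24, -1.85 and -1.19, and -1.98, -1.19 and -1.67, and moved in opposite directions over the arrays. A feature of CG17681 read -2.69, -1.33 and -2.38, and a feature of CG3124 read -0.42, -1.07 and -1.78.

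Aliases and known protein types give a role to some of the genes. Several encode enzymes. CG4836, with the alias SODH-1 of a sorbitol dehydrogenase, read -1.37, -1.22 and -1.06. CG4036, a homologue of the AlkB-type dioxygenase ALKBH4, read -1.05, -0.77 and -0.86. CG31373, with the alias PDF of a peptide deformylase, which takes the formyl group off new proteins, read -1.02, -0.76 and -0.76. In CG4036 and CG31373 array 1 was the lowest and the other arrays were near each other.

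Other members encode proteins of the cytoskeleton, of mitochondria, of protein turnover or of ribosome assembly. CG10859, for an intermediate chain of the dynein motor of sperm tails and cilia, read -1.42, -0.94 and -1.19. CG6891, with the alias Cotl1 of an actin-binding coactosin, read -1.28, -0.86 and -0.90, and its 2 features gave -1.02 and -1.01. CG2247, with the alias FBXL5, which in mammals names an F-box protein of the iron response, read -0.79, -1.01 and -0.84.

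CG6724, a homologue of the ribosome assembly factor WDR12, read -1.17, -0.86 and -0.86. CG11825, with the alias dHIG1 of a mitochondrial protein named for its induction by low oxygen in other animals, read -1.20, -0.85 and -1.23. These roles are of different kinds, and for most of the 54 no role is stated here.

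A property that the rule did not use, and that part of the 54 shared, was found in their aliases. RefSeq lists, as synonyms of a gene, the names of cDNA clones that were once sequenced from it, and the start of a clone name gives the tissue of its library. Names that start with bs come from expressed sequence tags of adult testis, and names that start with AT from another adult testis library. The look at clone names was chosen after the genes were known, and clone names are recorded unevenly among genes.

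A testis clone name of either kind was listed for 14 of the 54 genes (25.9%), against 232 of 4635 CG genes (5.01%). A bs name was listed for 11 of 54 (20.4%), against 89 of 4635 (1.92%). An AT name was listed for 5 of 54 (9.26%), against 165 of 4635 (3.56%). CG9133 and CG31226 carried both kinds. These are counts beside a background, with no test.

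Names from other libraries were also listed at higher shares in the group. Head clones that start with GH were listed for 6 of 54 (11.1% against 2.74% of all CG genes), and 5 of these 6 also had a testis name. Head clones that start with RH were listed for 3 (5.56% against 1.62%), embryo clones that start with RE for 3 (5.56% against 2.59%), and clones of the Schneider cell line, which start with SD, for 2 (3.70% against 0.561%). Embryo clones that start with LD were listed for 1 (1.85% against 1.38%). Ovary clones that start with GM and larval and pupal clones that start with LP were listed for 0 of the 54, but their shares of all CG genes, 0.518% and 0.863%, are too small for a count of 0 to say anything.

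The neighbouring sets of CG genes had testis names at shares near the 5.01% of all CG genes, in sets too small to tell such shares apart. Of 44 CG genes with a mean at or below -0.8 but 0.8 log2 or more between arrays, 1 had a testis clone name (2.27%). Of 52 genes that were as steady but had a mean between -0.8 and -0.6, 2 had one (3.85%). Of 24 CG genes that were higher by the mirrored limits, 1 had one (4.17%). Of the 64 named genes within both limits, 2 had one (3.13%). Among all 6170 named genes 1.70% had such a name, less than among CG genes.

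**Figure D2:**
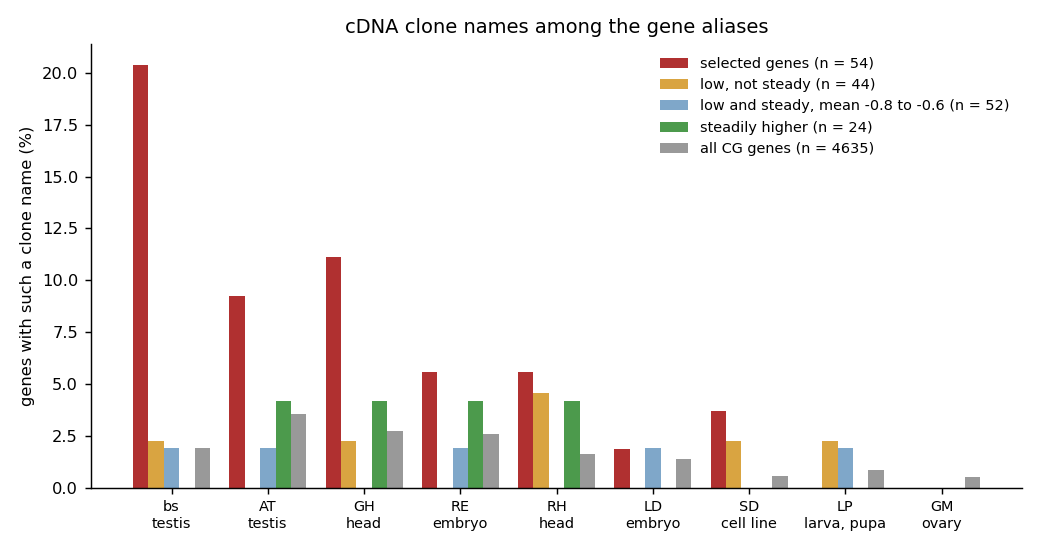
Share of genes (y axis, percent) with a cDNA clone name of each library (x axis) among their RefSeq aliases, for the 54 selected genes, 3 other sets of CG genes and all 4635. Names that start with bs, from testis, were listed for 20.4% of the 54 and for 1.92% of all CG genes.

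Within the group the 14 genes with a testis name lay lower, with a median mean ratio of -1.45, against -1.02 for the other 40. With the least variable feature standing for each gene, the medians were -1.10 and -0.95, so the gap was much smaller under that choice. Of the 12 lowest genes 6 had a testis name, and of the 27 lowest 12 had one. These were CG17376, CG10252, CG31740, CG31988, CG18131, CG3213, CG12699, CG30430, CG10063, CG4836, CG9133 and CG31909, with CG31226 and CG1394 further up.

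CG12699 read -1.33, -1.48 and -1.55, and CG30430 read -1.65, -1.52 and -1.16. CG10063 read -1.24, -1.16 and -1.51. CG31909 read -1.14, -1.39 and -0.72, with array 3 the highest. CG1394 read -0.47, -1.19 and -0.99, so that array 1, the lowest for most of the group, was the highest here.

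Counted over all CG genes, the 89 with a bs name had a median mean ratio of -0.15, against -0.02 for the other 4546. These 89 include the 11 members with a bs name, which the rule chose for low means. The values are thus no separate evidence. A mean below 0 was found in 68 of the 89 (76.4%), against 53.5% of the rest. A mean at or below -0.8 was found in 12 of the 89, or 13.5%, against 1.89% of the rest and 2.11% of all CG genes. Of these 12, 11 are the members themselves, so this share largely restates the 11 of 54 given above. A mean at or above 0.8 was found in 0 of the 89. CG12860 was the gene of these 12 outside the group, at -0.75, -1.69 and -0.82, with 0.941 log2 between its arrays. The 165 genes with an AT name had a median of -0.09, and 3.03% of them lay at or below -0.8. Other libraries gave raised shares too. At or below -0.8 were 11.5% of 26 genes with an SD name, 6.67% of 75 with an RH name and 5.51% of 127 with a GH name, and 70.8% of 24 genes with a GM name, from ovary, were below 0. Low values were thus not confined to genes with testis names, and most genes with a testis name were above the limit.

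A list of 40 named genes of the testis and male germ line, 27 of them measured, stood beside this. Its median was -0.24, with -0.28, -0.26 and -0.22 on arrays 1, 2 and 3, while the median over all genes was -0.0032. Of the 27, 21 were below 0, and 3 lay at or below -0.8. These were the sperm leucyl-aminopeptidase genes S-Lap2 (-1.47) and S-Lap7 (-1.05), and ocn (-0.83). Only the S-Lap genes were also steady by the limit on the range, as ocn read -0.24, -1.02 and -1.24. The genes not below 0 were highest at twe (0.18), Pglym87 (0.15) and nht (0.14), and betaTub85D was near 0 (-0.07). Mst87F, which encodes a protein of the sperm tail, read -0.33, -0.31 and -0.30. Whether cells or transcripts of that kind have a part in the values of the 54 was not tested.

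Lists of other cell types that an ovary dissection can hold were set beside this as well. The 12 measured eggshell and late follicle cell genes had a median mean of -0.96, with 9 of them at or below -0.8. Their medians were -2.43, -0.26 and 0.17 on arrays 1, 2 and 3, so the median was low on array 1 and not on array 3. Single genes differed from it, such as Fcp3C (-1.33 on array 3) and Pxt (0.86 on array 1). The 14 fat body genes had a median mean of -0.23, close to that of the testis list, and medians of -0.69, 0.09 and 0.03 on the arrays. Of these, 3 lay at or below -0.8, namely Pepck1 (-1.80), Lsd-1 (-1.71) and Obp99b (-1.52), all lower than any measured gene of the testis list. The part of fat body or follicle cells in the values of the 54 was not tested. The medians of the mean were 0.19 for 15 muscle genes, -0.09 for 25 midgut genes, -0.05 for 12 hemocyte genes, 0.03 for 6 genes of the reproductive tract and 0.11 for 23 germline regulators. On array 2 the lowest median of these 7 lists was the -0.26 of the eggshell genes. On array 3 it was the -0.11 of the midgut genes. Among the germline regulators 1 gene, bgcn (-1.44), lay at or below -0.8, and the germ plasm gene osk read -0.12.

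Many of the 54 rest on a single feature of the array. Of the 54 genes 34 had 1 feature, 18 had 2 and 2 had more, which made 77 features. Every one of the 77 was below 0 on all 3 arrays, and 0 of them held an exact 0, a value the software can write where it has no ratio. In the 20 genes with more than 1 feature, all features lay at or below -0.8 in 9.

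In 7 of these 20 the means of the features differed by more than 1 log2. CG10252 had features at -2.80 and -0.71. CG17681, which read -1.39, -0.70 and -1.30 on the arrays, had them at -2.13 and -0.13, and CG3213 at -2.34 and -0.57. In each of these genes 1 feature carried most of the difference.

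CG12699 had features at -2.27 and -0.64, and CG1394 at -1.48 and -0.29. The 3 features of CG4836 gave -2.07, -1.40 and -0.19. CG9133 read -1.01, -1.18 and -1.26 on the arrays. Of its 4 features, a pair gave -2.07 and -1.99 and the other pair -0.32 and -0.22. The size of the difference is therefore uncertain for these 7 genes.

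Among the 7 members with more than 1 feature and a bs name, 6 had features more than 1 log2 apart, with a median gap of 1.78. Among the 13 without a bs name 1 had, CG17681, and their median gap was 0.34. In the other CG genes with more than 1 feature the median gap was 0.33 for 33 genes with a bs name and 0.16 for 1803 without. A gap can be wide only where a feature is far from 0, and the members were chosen for low means. Gaps over 1 log2 were found in 1.55% of those 1803 genes, and in 2 of 15 CG genes that were low but not steady.

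**Figure D3:**
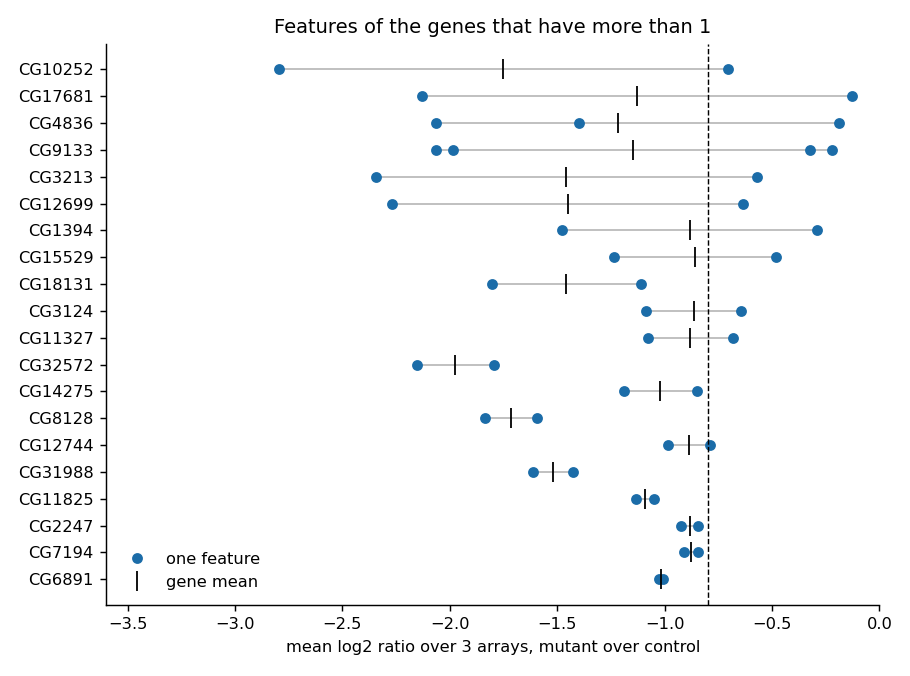
Mean log2 ratio over 3 arrays (x axis) of each feature, shown as a point, for the 20 genes with more than 1 feature; ticks are the gene means and the dashed line is the limit of -0.8. All points lie below 0, and the points of the 7 genes at the top lie more than 1 log2 apart.

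The 54 genes were spread over the major chromosome arms in the RefSeq annotation of assembly GCF_000001215.4. There were 16 on 2L (29.6%, against 18.8% of the measured CG genes) and 13 on X (24.1% against 16.7%). Arms 2R and 3L held 9 each, and 3R held 7, which is 13.0% against 25.3%.

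Few of the 54 lay beside each other. Starts under 20 kb apart were found for 2 pairs, CG11825 with CG12896 and CG13540 with CG3124, both on 2R. The former pair belongs to a run of genes that were all low. In genome order they were Prx6c at -1.60, -0.79 and -0.77, CG11825 at -1.20, -0.85 and -1.23, Prx6b at -1.59, -0.73 and -0.82, and CG12896 at -1.31, -0.62 and -0.62.

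CG12896 has the alias Prx12896 and, like Prx6b and Prx6c, encodes a peroxiredoxin, an enzyme that breaks down peroxides. All 3 peroxiredoxin genes were lowest on array 1, and arrays 2 and 3 were near each other. The signals of similar copies may not be separate in a hybridisation. RanBPM, the next measured gene on the side of CG12896, read 0.09, 0.33 and 0.15, so the run of low values ended there.

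In the other pair, CG13540 read -1.08, -0.80 and -1.20 and CG3124 read -0.56, -0.82 and -1.22. Between them lies ord, which is needed to hold sister chromatids together in meiosis, at -0.57, -0.20 and -0.82. On the outer sides CG12782 read -0.60, -0.26 and -0.59, and atlas read -0.03, -0.15 and 0.17. Thus low values were found in the pair and, to a lesser extent, in 2 of the 3 measured genes next to it.

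The nearest measured genes on either side of the 54, themselves not in the group, numbered 106. Their median mean ratio was -0.08, and 6 of them (5.66%) lay at or below -0.8, against 1.87% of all genes. Of these 6, 2 were Prx6b and Prx6c. CG15599, beside CG8128, read -2.40, -1.39 and -1.82. CG6999, beside CG32706, read -1.82, -0.86 and -1.44, while CG32706 read -1.38, -0.98 and -1.12. Lime, beside CG12744, read -1.62, -0.73 and -1.96, and CG12744 read -1.11, -0.90 and -0.66. These neighbours failed the rule on the range or had a proper name.

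**Figure D4:**
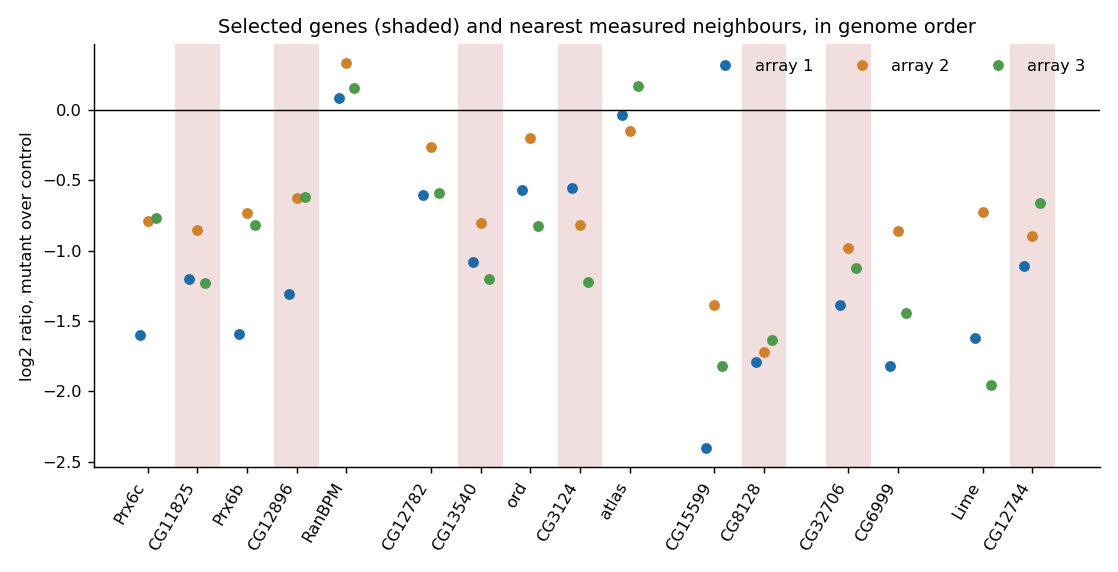
Log2 ratio of mutant over control (y axis) on the 3 arrays for members (shaded) and their nearest measured neighbours, in genome order within each stretch, for stretches chosen after their values were seen. Prx6c, CG11825, Prx6b and CG12896 lie below 0 on all arrays, and RanBPM lies above.

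The annotated interval of 20 of the 54 genes overlaps another annotated gene, a protein-coding one in 19. CG31661, which overlaps CG18131, was the only measured overlapping gene at or below -0.8. It read -2.24, -0.54 and 0.25 and so differed among arrays in a way that CG18131 did not. The other measured ones lay between -0.21 and 0.27, such as wb (0.04), which overlaps CG32971, and mbl (0.02), which overlaps CG12699.

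**Figure D5:**
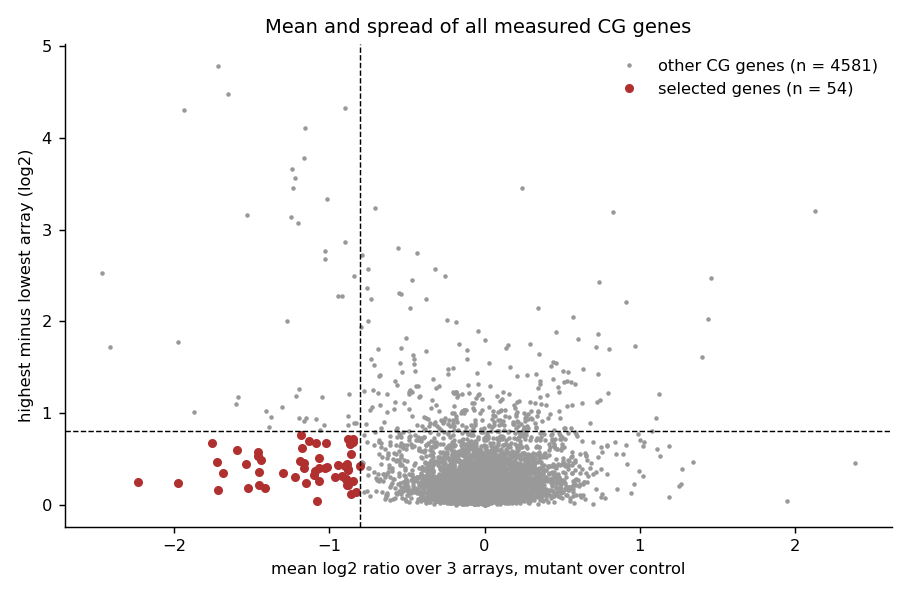
Mean log2 ratio over 3 arrays (x axis) against the difference between the highest and lowest array (y axis) for all 4635 measured CG genes; dashed lines mark both limits and the 54 selected genes are drawn large. The genes with low means above the horizontal line are the 44 that were low but not steady.

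The limits cut through a continuous spread of genes. Just inside the limit on the mean were CG13148 (-0.98, -0.56 and -0.87), CG11858 and CG31373. Just outside were CG32281 with a mean of -0.79, CG17344 with -0.79 and CG15879 with -0.78. Just inside the limit on the range were CG14777 (-1.63, -1.04 and -0.87, a range of 0.762), CG1394 and CG13891 (-0.48, -1.19 and -0.88). Just outside were CG5853 (-1.48, -1.03 and -0.66, a range of 0.818), CG1418 (-1.66, -0.82 and -1.68) and CG3348 (-1.30, -0.90 and -0.43).

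The 44 CG genes that were low but not steady had another shape over the arrays, which the rule itself sets in part. Their medians were -2.16, -0.90 and -0.44 on arrays 1, 2 and 3, and array 1 was the lowest for 39 of them. In the 54 genes the array medians were -1.24, -1.05 and -0.99. Of the 7 genes set aside by name, 0 met both limits. Of these, 6 had 2.76 log2 or more between arrays, such as CG13083 at -3.08, -0.98 and 0.37, and CG10418 had a mean of -0.26.

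The rest of the 54 had means between -1.41 and -0.86. CG13321 read -1.44, -1.50 and -1.31, the lowest of these. In the middle of the group, between -1.17 and -1.02, were CG9286, CG15172, CG9119, CG10993, CG15820, CG31601 and CG14275. The smaller differences, between -0.94 and -0.86, were those of CG6324, CG15027, CG7202, CG14628, CG11327, CG11594, CG7194 and CG15459.

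Some of these differed by array. CG9286 read -1.55, -1.04 and -0.93, CG15172 read -1.44, -1.06 and -0.99, and CG14275 read -1.34, -1.06 and -0.66. In all 3 of them the values were lowest on array 1 and highest on array 3. CG7202 (-0.69, -1.11 and -0.89) was lowest on array 2 instead, as was CG15820 (-0.93, -1.19 and -1.08).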

How the data were processed

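RNA of sva53 ovaries and sva53/+ control ovaries was compared by hybridising both to each of 3 Agilent arrays. Per the labels, 100 ng of total RNA was amplified. The authors deposited log10 ratios, made with Agilent Feature Extraction 7.1 per the submitters' processing notes. How background and dyes were corrected is not stated in the labels. The deposited log10 values were turned in sign and put on a log2 scale. Of 22575 features, 636 at the grid edge were left out. Features were named through the platform annotation: 17329 had 1 gene, and were averaged per gene. The 54 genes matched RefSeq by identifier, with unchanged symbols. The number of arrays limits the precision, and with a single control RNA the spread among controls is not measured.

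The 10805 gene averages, with 4284 unlisted features and 326 of several genes or no symbol, made 15415 rows. These were fitted with limma 3.58.1 in R 4.3.3 (intercept and eBayes, 2-sided, Benjamini-Hochberg adjusted p under 0.05). The fit was tested on simulated data with independent noise and planted shifts. That simulation did not copy the shared control RNA or the fixed dye, so it cannot show how the fit behaves with them. The members and lists were chosen with earlier results of these data known. Values of each array are printed for the 12 lowest members, neighbouring members, members whose features differ by over 1 log2, the 5 steadiest and those nearest the limits; others were chosen after their values were seen. Protein and promoter sequences were not analysed here.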

Additional observations from a re-analysis of the deposited data

How the results depend on the processing

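The group held 54 genes as defined. It held 64 with arrays scaled to a common SD (49 of the 54 kept). The least variable feature of each gene gave 55 (44 kept). Removing grid row and column medians, a setting chosen after seeing the data, gave 55 (53 kept). Leaving out an array gave 64 to 92 genes, the latter without array 3, with 46 to 52 of the 54 kept. A range over fewer arrays cannot exceed that over all of them, so the same limit on the range was easier to meet there. A limit of -1.0 gave 34 genes and of -0.6 gave 106, and with the sign not turned it took 24 other genes. The median of the 54 lay between -1.13 and -1.02 under 9 alternatives. With the least variable feature 13 genes moved by more than their SD, such as CG17681 to -0.13, CG4836 to -0.19, CG1394 to -0.29 and CG9133 to -0.32. Starts under 10 kb apart were found for 2 genes, against 4 under 20 kb. Counting AT names without regard to bs names gave 5 genes, against 14 with either. With limma 1114 of the 15415 rows were called lower, 0 at an adjusted p under 0.01, 1758 with the least variable feature, 2935 with array weights and 0 without any 1 array, where 1640 to 2452 had an unadjusted p under 0.05. No paired analysis was possible because the arrays form 1 group against a common control. Alternatives on protein families and promoters were not run.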

Other observations

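Features without 1 named gene also held low and steady values. Of 4284 features with no gene listed, 45 (1.05%) had a mean at or below -0.8 and less than 0.8 log2 between arrays, and 26 (0.607%) met the mirrored limits. Of 326 features with several genes or no symbol, 8 (2.45%) were low and steady. Of the 17329 features with 1 gene, 197 (1.14%) were low and steady and 128 (0.739%) high and steady.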
